A study of Mus musculus with 12 samples.

Results

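Messenger RNA of 10 genes that encode glycoproteins and proteoglycans of the extracellular matrix was followed in cells and tissue of the superior cervical ganglion of the mouse (SCG), a sympathetic ganglion of the neck. The set holds fibronectin (Fn1), tenascin-C (Tnc), Sparc, periostin (Postn), thrombospondin-1 and thrombospondin-2 (Thbs1 and Thbs2), the small leucine-rich proteoglycans decorin, lumican and biglycan (Dcn, Lum and Bgn), and versican (Vcan), a large proteoglycan. The genes were picked by name, with earlier results of these arrays known, and they are 10 of the 18193 genes that could be named from a probe set with a single gene symbol. All 10 were on the array with 27 probe sets in all, and the probe set of highest mean over the 12 arrays stood for each gene.

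There were 3 groups of 4 biological replicates, all of CD1 mice. In the 2D group SCG cells were grown on a flat surface, in the 3D group they were grown in porous polystyrene scaffolds, and the tissue group was freshly dissected SCG. The labels name a polystyrene Petri dish for the 2D group and the methods a dish with a glass bottom. The labels give an age of 21 days for every sample, while the methods speak of neonatal mice. For both cultures the ganglia had been digested with collagenase, the dishes and scaffolds were coated with type I collagen, and the medium held serum and nerve growth factor, so both cultures differ from tissue in all of these. Cells of about 2 ganglia were placed in each dish or scaffold, and the arrays were made from whole cultures after 5 days and from whole ganglia. A culture or ganglion holds neurons, satellite glia, fibroblasts and other cells, and in such RNA fewer cells of a type and less RNA per cell cannot be told apart. The sources used here do not say how animals were divided among replicates, so p-values measure the spread between these samples, part of which may be technical.

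The matrix around ganglion cells is built in large part by fibroblasts of the capsule and of the tissue between neurons, with basement membrane laid down around glia. Fibronectin and collagens form its scaffold. Matricellular proteins such as tenascin-C, Sparc, periostin and the thrombospondins carry little load themselves and act on how cells attach, spread and receive growth factors, and several of them are known from injured and healing tissue. Decorin, lumican and biglycan are small core proteins that bind collagen fibrils and govern their width and spacing, and versican forms large hydrated complexes with hyaluronan.

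The values were log2 expression values from robust multichip averaging (RMA), so a difference of 1 is a 2-fold change. Between tissue and the cultures, 7 of the 10 genes lay lower on every tissue array than on each of the 8 culture arrays, and these were Fn1, Tnc, Postn, Thbs1, Thbs2, Bgn and Vcan. Dcn and Lum went the other way and were higher in tissue than in 2D cultures. How many of all genes lie below all 8 culture arrays on every tissue array was not computed. Pairwise and in either direction, tissue arrays did not overlap 2D arrays for 33.8% of all genes and 3D arrays for 42.4%. Between 3D and 2D cultures none of the 10 passed the threshold. Groups were compared with limma, p-values were adjusted over all 45037 probe sets by the Benjamini-Hochberg method, and a gene was called when its adjusted p was below 0.05.

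The markers fixed for the tissue fitted the label of a sympathetic ganglion in all groups. Slc6a2, the noradrenaline transporter, stood at a mean log2 value of 12.34 in 2D, 11.58 in 3D and 13.83 in tissue. Th, the first enzyme of noradrenaline synthesis, stood at 11.38, 9.97 and 12.55. The tissue arrays were not alike. The summed linear level of 8 fibroblast markers was 46250 on tissue replicate 1 and 48730 on replicate 4 but 22850 on replicate 2 and 15250 on replicate 3, against 40330 to 62470 in 2D and 46590 to 48480 in 3D. A linear sum is set mostly by its brightest genes. In 2D these were Col1a2, Col3a1 and Col1a1 (mean log2 values 14, 13.83 and 13.3). In tissue they were Col3a1, Thy1 and Col1a2 (13.3, 13.02 and 12.53). Thy1 had a higher mean in tissue than in 2D and 3D (12.3 and 11.7), while Col1a1, Col1a2 and Col3a1 had lower means there. These collagen genes are matrix genes themselves. The sum of 8 skeletal muscle markers was 405.7 on tissue replicate 1 and 5418, 3237 and 5113 on replicates 2 to 4, against 317.1 to 377.1 over the cultures. Tissue replicates 2 and 3 also had the narrowest spread of values over all probe sets, with SDs of 2.14 and 1.93 against 2.31 to 2.42 on the other 10 arrays. Results that rest on these arrays are given with and without them. RMA gives neither a zero nor a detection call, so no marker can be called absent.

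**Figure D1:**
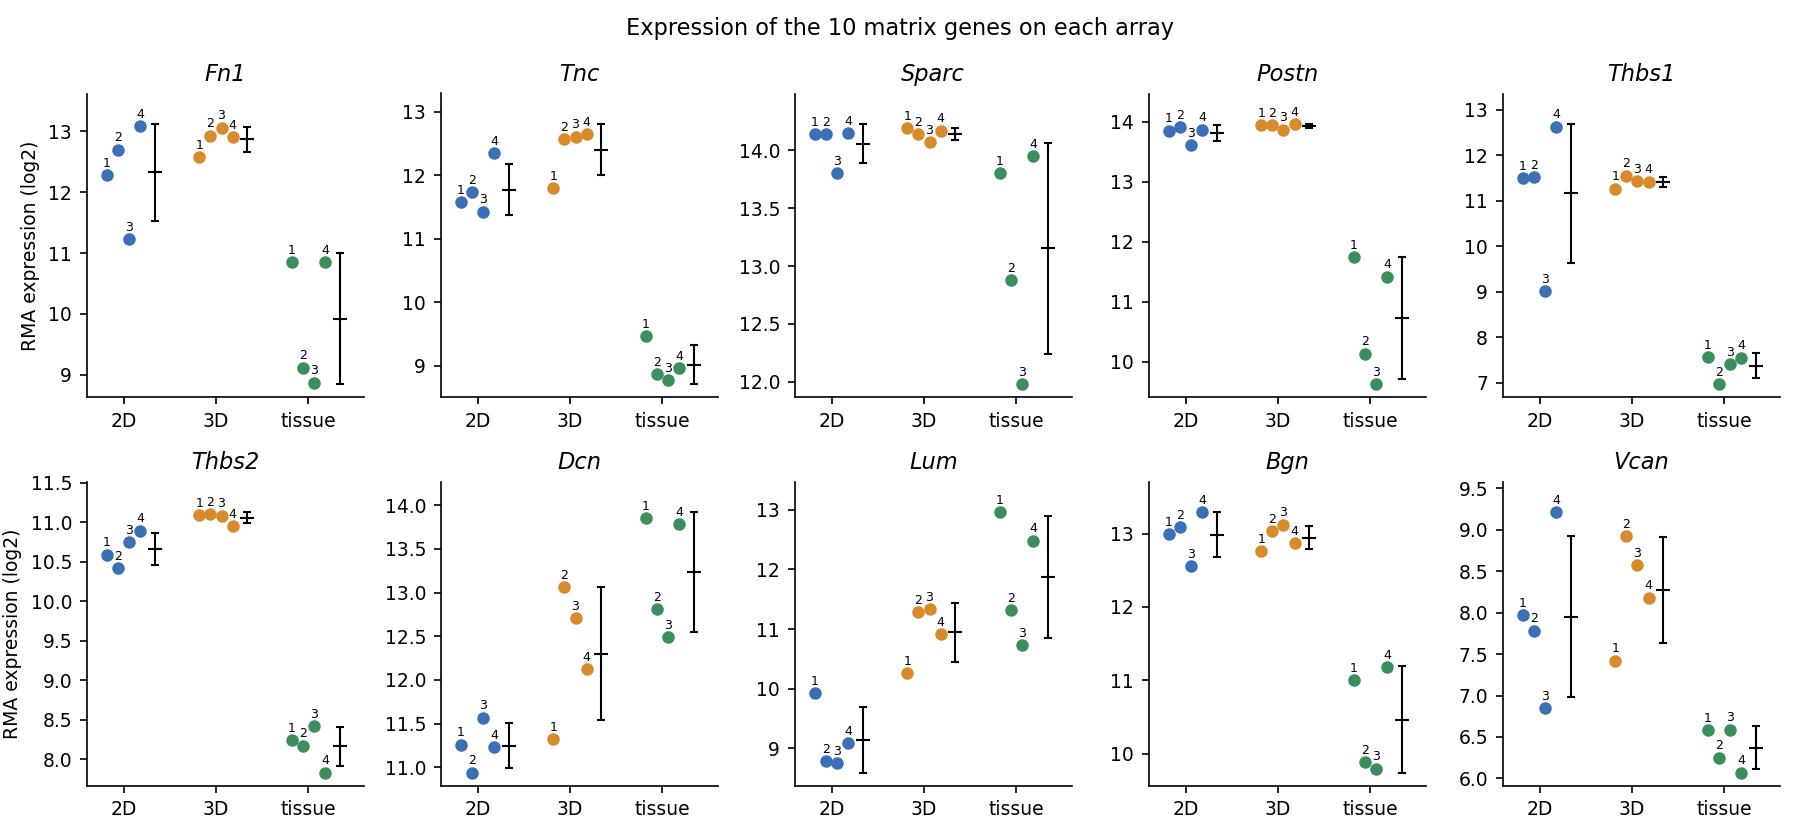
RMA expression (log2, y axis) of each of the 10 genes on the 12 arrays, by group (x axis: 2D, 3D, tissue); the number over a point is the replicate, and the bar beside the points is the mean and SD of 4 arrays. In 7 panels the tissue points lie below all culture points, Dcn and Lum are higher in tissue than in 2D, and each panel has its own y axis.

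Promoter windows of 250 bases before the transcription start were on hand from RefSeq (build GRCm38.p6) for 6 of the 10 genes, Tnc, Sparc, Postn, Thbs2, Bgn and Vcan, in 8 windows since Tnc and Postn have 2 starts each. A total of 4 are shown, 1 for each of 4 genes that were lower in tissue than in both cultures, to let their core promoters be set side by side. Each is written 5′ to 3′ on the strand of its gene, and ends at the base before the start. Capitals mark matches on either strand to the TATA box (TATAAA), the CCAAT box (CCAAT) and the GC box (GGGCGG).
Tnc promoter, chr4:64047016-64047265, minus strand: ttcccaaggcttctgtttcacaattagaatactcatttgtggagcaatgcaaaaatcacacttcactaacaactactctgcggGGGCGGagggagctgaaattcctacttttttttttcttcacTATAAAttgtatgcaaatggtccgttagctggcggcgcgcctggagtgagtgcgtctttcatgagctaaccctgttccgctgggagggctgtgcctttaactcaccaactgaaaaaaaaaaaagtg
Postn promoter, chr3:54360857-54361106, plus strand: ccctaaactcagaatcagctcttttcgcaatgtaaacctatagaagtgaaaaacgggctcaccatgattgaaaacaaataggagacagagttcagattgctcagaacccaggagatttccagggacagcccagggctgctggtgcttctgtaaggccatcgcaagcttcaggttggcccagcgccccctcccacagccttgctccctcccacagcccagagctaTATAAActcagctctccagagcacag
Thbs2 promoter, chr17:14694263-14694512, minus strand: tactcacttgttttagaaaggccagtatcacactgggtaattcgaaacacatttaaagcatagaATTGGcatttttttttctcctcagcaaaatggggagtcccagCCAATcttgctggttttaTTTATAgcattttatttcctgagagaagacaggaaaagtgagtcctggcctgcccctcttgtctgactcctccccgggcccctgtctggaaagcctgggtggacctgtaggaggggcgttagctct
Bgn promoter, chrX:73483351-73483600, plus strand: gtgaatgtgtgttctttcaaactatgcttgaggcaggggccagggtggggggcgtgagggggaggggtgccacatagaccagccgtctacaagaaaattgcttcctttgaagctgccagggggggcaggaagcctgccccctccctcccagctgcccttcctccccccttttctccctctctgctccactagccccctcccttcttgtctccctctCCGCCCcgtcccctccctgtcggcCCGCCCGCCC

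These genes were lower in tissue than in both cultures, and exact matches to these boxes did not lie in the same places in all windows shown. The exact search did not count near matches, such as tatataag close before the second Tnc start, so a shared layout was not tested. The window of the second Postn start held TATAAA 26 bases before the start, where this element usually lies, while the matches in Tnc (first start) and Thbs2 lay 126 bases before it. The Bgn window held 3 GC boxes, at 34, 10 and 6 bases before the start, the last 2 overlapping by 2 bases in a single stretch. The Vcan window, not shown, held 2 GC boxes and a CCAAT box, and the Sparc window held none of these. Of all 32851 windows of this length, 12.4% held TATAAA, 33.9% CCAAT and 32.7% GGGCGG on either strand. The AP-1 site TGANTCA, found in 6.75% of all windows, and the TEAD site GGAATG, found in 12.6%, were in none of the 8 windows, which says only that these letters are not in the bases searched.

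The first question was whether the form of the culture, flat or porous, changed the mRNA of these genes. Of the 10 genes, 0 were called between 3D and 2D, where 0.0165% of all genes were called, and 4 had an unadjusted limma p below 0.05 (Tnc, Thbs2, Dcn and Lum, all higher in 3D). The share of all genes below 0.05 at the unadjusted limma p was not computed, so that count has no background. The methods' t-test on the same values called 3 before adjustment (Thbs2, Dcn and Lum, all higher in 3D) and 0 after it. Before adjustment it called 7.23% of all genes higher and 4.41% lower. The arrays of the groups did not overlap for 2 of the 10, Thbs2 and Lum, against 7.36% of all genes. The median difference of the 10 was 0.36, and that of all genes 0.01.

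Lum, a keratan sulphate proteoglycan best known from the cornea, showed the largest difference of the 10 between the cultures. Its values were 9.93, 8.79, 8.75 and 9.09 in 2D and 10.26, 11.28, 11.33 and 10.91 in 3D (replicates 1 to 4). Every 3D array lay above every 2D array, by 0.33 at the nearest pair. The mean difference was 1.81, or 3.49-fold (95% interval 1.09 to 2.52; adjusted p = 0.148), and the exact two-sided permutation test gave p = 0.0286, the smallest that 4 arrays against 4 allow. Dcn, whose product binds collagen and transforming growth factor beta, stood at 11.26, 10.94, 11.57 and 11.23 in 2D and at 11.32, 13.06, 12.71 and 12.12 in 3D. On 3 of the 4 3D arrays Dcn was above all 2D arrays, and on 3D replicate 1 it lay within their range. The difference was 1.05 (interval 0.28 to 1.83; adjusted p = 0.308). The dimmer Dcn probe set differed by -0.015 (adjusted p = 0.966).

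Thbs2, a thrombospondin that acts on collagen fibril assembly, was higher on all 3D arrays by a small step of 0.39 (interval 0.15 to 0.64; adjusted p = 0.240). Its 2 other probe sets differed by 0.42 and 0.70 (adjusted p = 0.417 and 0.187). At the first of these the 3D and 2D arrays overlapped, with 2D up to 11.71 and 3D from 11.59. Tnc differed by 0.63 (interval 0.07 to 1.19; adjusted p = 0.382). For Thbs1 the interval ran from -1.21 to 1.72 around a difference of 0.25, since the 2D arrays were spread widely, with 9.01 on replicate 3 and 12.63 on replicate 4. For Bgn the interval was narrow, from -0.39 to 0.32 around -0.04, and for Postn it ran from -0.07 to 0.31. The 2D replicates 3 and 4 set much of the 2D spread, since replicate 3 was lowest for 8 of the 10 genes and replicate 4 highest for 7. Several marker sums moved on the same arrays. The fibroblast sum was 40330 on 2D replicate 3, the lowest of the cultures, and 62470 on replicate 4, the highest of all arrays. The sum of 8 sympathetic neuron markers was 10510 on 2D replicate 4 against 28610 to 33790 on the other 2D arrays, and 24280 on 3D replicate 1 against 13770 to 14050 on the other 3D arrays. The sum of 10 macrophage markers was 7853 on 2D replicate 4 against 1729 to 3447 on the others. Sums of 6 glial markers did not overlap between the cultures, with 23610 to 28890 in 2D and 33360 to 37590 in 3D. The part of these cell types in the differences between 3D and 2D was not tested.

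**Figure D2:**
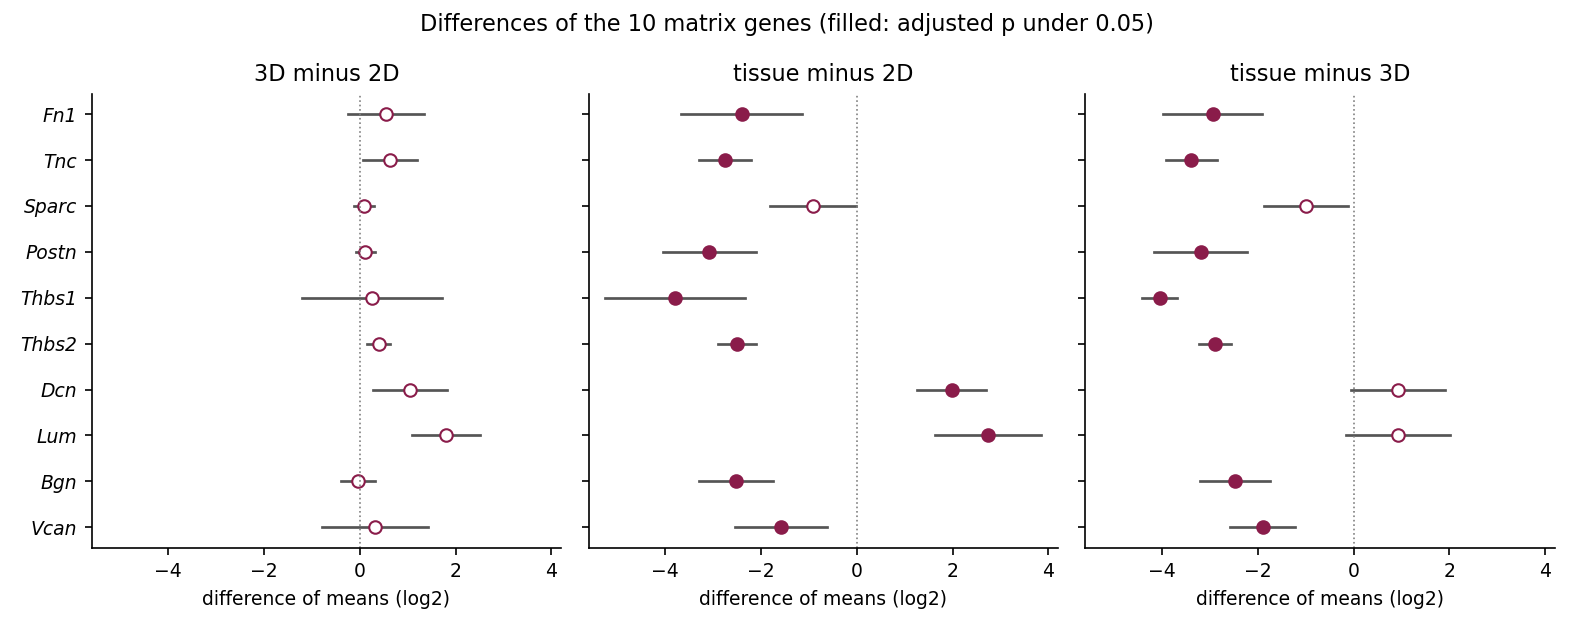
Differences of group means (log2, x axis) for each of the 10 genes (y axis) in 3 comparisons of 4 arrays against 4; points are differences, lines 95% intervals, and filled points have a limma adjusted p under 0.05. No point is filled for 3D minus 2D, 9 are filled for tissue minus 2D and 7 for tissue minus 3D.

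The second question was how either culture differed from freshly dissected tissue. Against 2D, 9 of the 10 genes were called. Of these 2 were higher in tissue, where 9.87% of all genes were called higher, and 7 were lower, where 14.3% of all genes were called lower. Arrays did not overlap for 9 of the 10, against 33.8% of all genes. Against 3D, 0 were higher with limma, also before adjustment (15.5% of all genes with it) and 7 were lower (20.1% of all genes), and 8 of 10 did not overlap (42.4% of all genes). The median difference of the 10 was -2.45 against 2D and -2.68 against 3D, beside 0.03 for all genes in both. The comparisons share the same 4 tissue arrays, so they are not independent of each other.

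Thbs1, whose product is a matricellular glycoprotein that can activate latent transforming growth factor beta, had the largest difference of the 10 at the probe sets used, though a Thbs2 probe set described next exceeded it. On the tissue arrays it stood at 7.56, 6.97, 7.41 and 7.55, on the 2D arrays at 11.50, 11.52, 9.01 and 12.63, and on the 3D arrays at 11.27, 11.55, 11.43 and 11.42. Tissue and 3D arrays were each tightly grouped and lay far apart, and even the low 2D replicate 3 was above all tissue arrays. Thbs1 was 13.9-fold lower in tissue than in 2D (log2 difference -3.79, SE 0.65, adjusted p = 0.00508) and 16.5-fold lower than in 3D (-4.05, SE 0.16, adjusted p = 2.00e-06). A second Thbs1 probe set gave -3.71 and -4.11.

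Thbs2 stood at 8.24, 8.17, 8.42 and 7.83 in tissue, 10.59, 10.42, 10.75 and 10.89 in 2D, and 11.09, 11.10, 11.08 and 10.95 in 3D. At this probe set the 3 groups were separate, with tissue at the bottom, but the nearest 3D and 2D arrays were only 0.06 apart. The gene was 5.65-fold lower than in 2D (adjusted p = 8.31e-05) and 7.41-fold lower than in 3D (adjusted p = 6.10e-06). This probe set has a name ending in x_at, which marks probes that may also bind other transcripts. The 2 other Thbs2 probe sets, of nearly the same mean, gave larger differences of -4.55 and -3.05 against 2D and -4.97 and -3.75 against 3D, all called, so the size for Thbs2 depends on the probe set and its direction does not.

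Tnc, an anti-adhesive glycoprotein of developing and injured tissue, stood at 9.47, 8.87, 8.78 and 8.97 in tissue. On the cultures it ranged from 11.43 to 12.35 in 2D and from 11.80 to 12.65 in 3D. The nearest tissue and culture arrays were 1.96 log2 units apart. Tnc was 6.74-fold lower than in 2D (-2.75, SE 0.24, adjusted p = 2.19e-04) and 10.4-fold lower than in 3D (-3.39, SE 0.23, adjusted p = 2.58e-05). Its second, dim probe set was lower as well (-1.91 and -2.31 on the log2 scale).

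Postn, which encodes a protein that supports collagen cross-linking, was nearly constant over the cultures, from 13.61 to 13.91 in 2D and from 13.87 to 13.96 in 3D. In tissue it stood at 11.74, 10.14, 9.63 and 11.42, so the tissue arrays were spread more widely (SD 1.01) than the 2D arrays (SD 0.14) and still lay wholly below them. It was 8.44-fold lower than in 2D (-3.08, SE 0.43, adjusted p = 0.00218) and 9.16-fold lower than in 3D (-3.20, SE 0.43, adjusted p = 7.55e-04).

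Fn1, whose glycoprotein links integrins to collagen and fibrin, stood at 10.85, 9.12, 8.87 and 10.85 in tissue, 12.28, 12.70, 11.23 and 13.09 in 2D, and 12.58, 12.93, 13.06 and 12.90 in 3D. Tissue replicates 1 and 4 came close to the lowest 2D array, 11.23. Fn1 was 5.29-fold lower than in 2D (-2.40, SE 0.56, adjusted p = 0.0181) and 7.70-fold lower than in 3D (-2.95, SE 0.46, adjusted p = 0.00167). Fn1 was no longer called against 2D when 2D replicate 2 was left out (adjusted p = 0.0552), nor without 2D replicate 4 (0.0521) or tissue replicate 2 (0.0597), while it stayed called against 3D without each array in turn.

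Sparc, a collagen-binding matricellular protein, was the exception among the glycoproteins. It stood at 13.80, 12.88, 11.98 and 13.95 in tissue, 14.14, 14.14, 13.80 and 14.15 in 2D, and 14.19, 14.14, 14.07 and 14.17 in 3D. Tissue replicates 1 and 4 lay at or above the lowest 2D array, 13.80, and replicates 2 and 3 lay well below all cultures. The differences of -0.91 (interval -1.80 to -0.01; adjusted p = 0.123) and -0.99 (interval -1.87 to -0.11; adjusted p = 0.0779) were not called. Without tissue replicate 1 the difference from 3D was -1.21 (adjusted p = 0.0446) and without replicate 4 it was -1.26 (0.0288). Without replicates 2 and 3 together it was -0.27.

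Bgn, a small proteoglycan encoded on the X chromosome, fell with the glycoproteins and not with its relatives Dcn and Lum. Its values were 11.00, 9.89, 9.80 and 11.18 in tissue, 12.99, 13.09, 12.56 and 13.29 in 2D, and 12.76, 13.03, 13.12 and 12.87 in 3D. All culture arrays were above all tissue arrays, and the 2 cultures overlapped. Bgn was 5.72-fold lower than in 2D (adjusted p = 0.0019) and 5.57-fold lower than in 3D (adjusted p = 6.45e-04), and its 2 other probe sets gave -2.15 and -2.61 against 2D and -2.01 and -2.50 against 3D on the log2 scale, all called.

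Dcn stood at 13.85, 12.81, 12.49 and 13.78 on the tissue arrays and Lum at 12.96, 11.32, 10.73 and 12.48. Both were above every 2D array, and both overlapped the 3D arrays. Against 2D, Dcn was 3.95-fold higher (1.98, SE 0.32, adjusted p = 0.00409) and Lum 6.65-fold higher (2.73, SE 0.49, adjusted p = 0.00635), and both calls were kept without each array in turn. Against 3D the differences were alike in size, 0.93 for Dcn (interval -0.05 to 1.91; adjusted p = 0.123) and 0.93 for Lum (interval -0.15 to 2.01; adjusted p = 0.157), and neither was called.

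The values against 3D turned on tissue replicates 2 and 3, on which both genes were lower than on replicates 1 and 4. Without these 2 arrays Dcn was higher than in 3D by 1.51 (adjusted p = 0.0186) and Lum by 1.78 (0.00170), a rise that leaving out the lower arrays gives by construction. With array quality weights the differences were 1.26 (0.0302) and 1.57 (0.00174), and with cyclic loess, which scales the arrays anew, 1.38 (0.0173) and 1.37 (0.0165). With centring on bright probe sets they were 1.21 (0.0320) and 1.20 (0.0381). The dimmer Dcn probe set was called higher in tissue against both cultures, by 1.43 against 2D (adjusted p = 0.00132) and 1.45 against 3D (5.54e-04). Its means were low, 4.81 in 2D, 4.80 in 3D and 6.245 in tissue, and it did not show the rise from 2D to 3D seen at the brighter probe set. On tissue replicate 1 alone, the one without raised skeletal muscle markers, Dcn was 1.55 above 3D (0.0863) and Lum 2.02 (0.00860), where the lone array is assumed to vary like the 3D group.

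**Figure D3:**
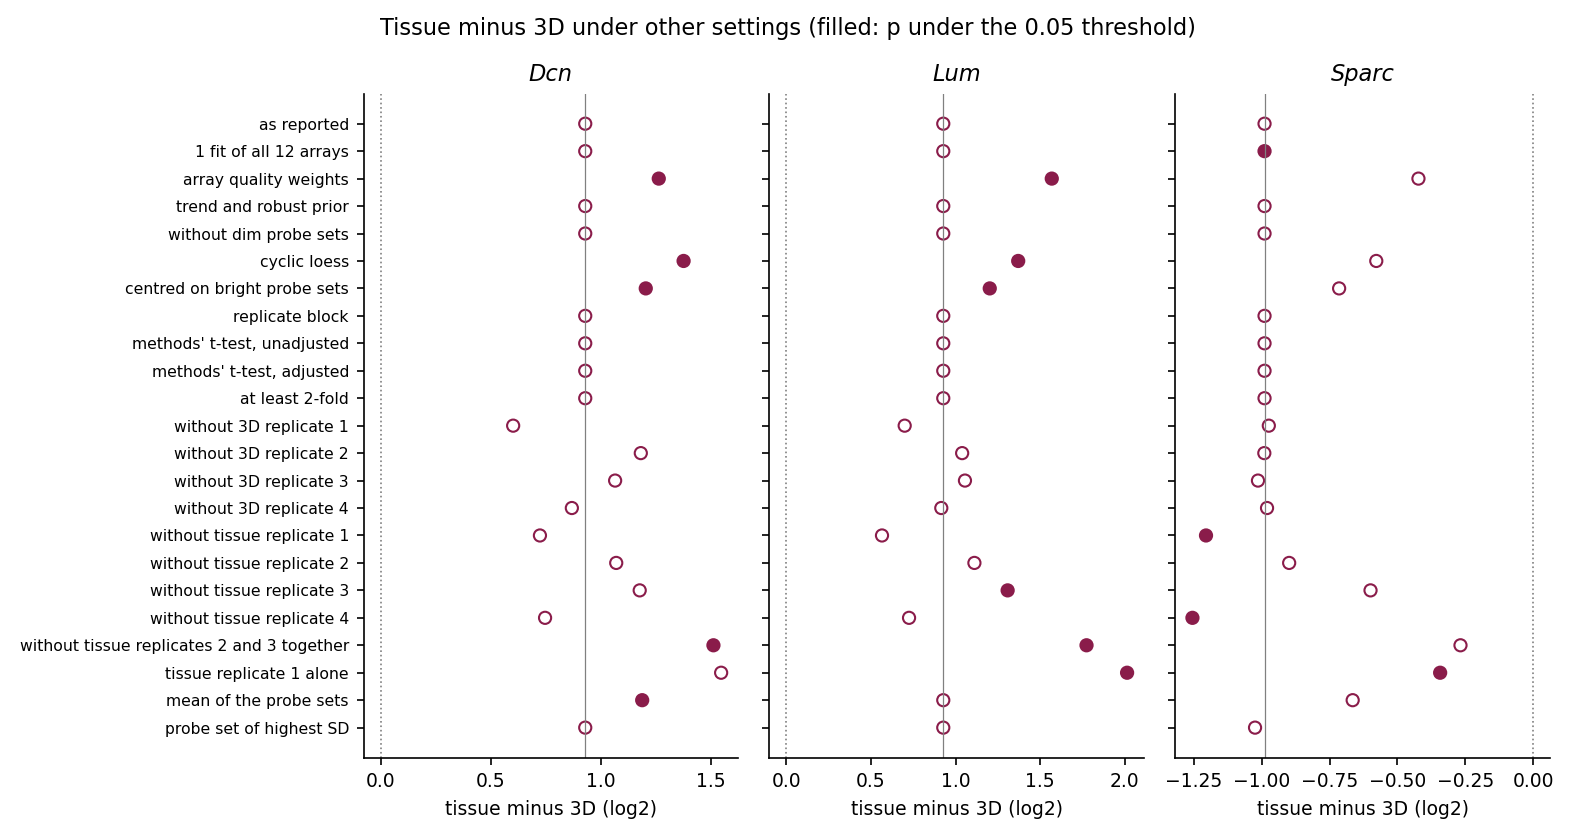
Differences between tissue and 3D (log2, x axis) for Dcn, Lum and Sparc under each setting (y axis), from the reported limma comparison at the top through other tests, scalings and sets of arrays; filled points are past the 0.05 threshold and the vertical line marks the reported value. For Dcn and Lum all values are above 0, and the filled points include the fit without tissue replicates 2 and 3 and both other scalings.

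The opposite course of the small proteoglycans was plainest as a ratio within each array, where a shift of the whole array cancels. Relative to the 2D mean, the log2 ratio of Dcn over Bgn was 1.09 ± 0.62 in 3D and 4.50 ± 0.15 in tissue (SD, n = 4), with tissue arrays from 4.33 to 4.65. The ratio of Lum over Bgn was 1.84 ± 0.35 in 3D and 5.25 ± 0.43 in tissue, with tissue arrays from 4.77 to 5.80. The 4 tissue arrays, which differed widely for Dcn and for Bgn, held nearly the same ratio of the 2. These ratios were chosen after the values were seen and are given as a description.

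Versican, which binds hyaluronan and is spliced into several forms, had 8 probe sets, and they did not agree. The brightest stood at 6.58, 6.25, 6.59 and 6.07 in tissue, 7.97, 7.78, 6.85 and 9.21 in 2D, and 7.42, 8.92, 8.57 and 8.18 in 3D. All tissue arrays were below all culture arrays, although the lowest 2D array was only 0.26 higher than the highest tissue array. Vcan was 2.99-fold lower than in 2D (-1.58, SE 0.43, adjusted p = 0.0305) and 3.73-fold lower than in 3D (-1.90, SE 0.30, adjusted p = 0.00183). The second brightest probe set gave -2.44 and -2.74, both called. A dimmer probe set, with a mean of 4.55, was higher in tissue by 1.31 and 1.39 (adjusted p = 0.0230 and 0.00987). It stood highest on tissue replicates 2 and 3 (5.83 and 6.26, against 4.94 and 4.77 on replicates 1 and 4). Those 2 arrays had the narrowest spread, with lower quartiles of 5.11 and 5.31 against 4.76 to 4.9 on the others. The part of that spread in this dim rise was not tested. The mean of the 8 gave -0.27 against 2D (0.308) and -0.39 against 3D (0.118). Vcan was also not called against 2D when replicate 1 or 2 of the 2D group was left out (adjusted p = 0.0719 and 0.0668), or replicate 2 or 4 of the tissue group (0.0845 and 0.0519).

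**Figure D4:**
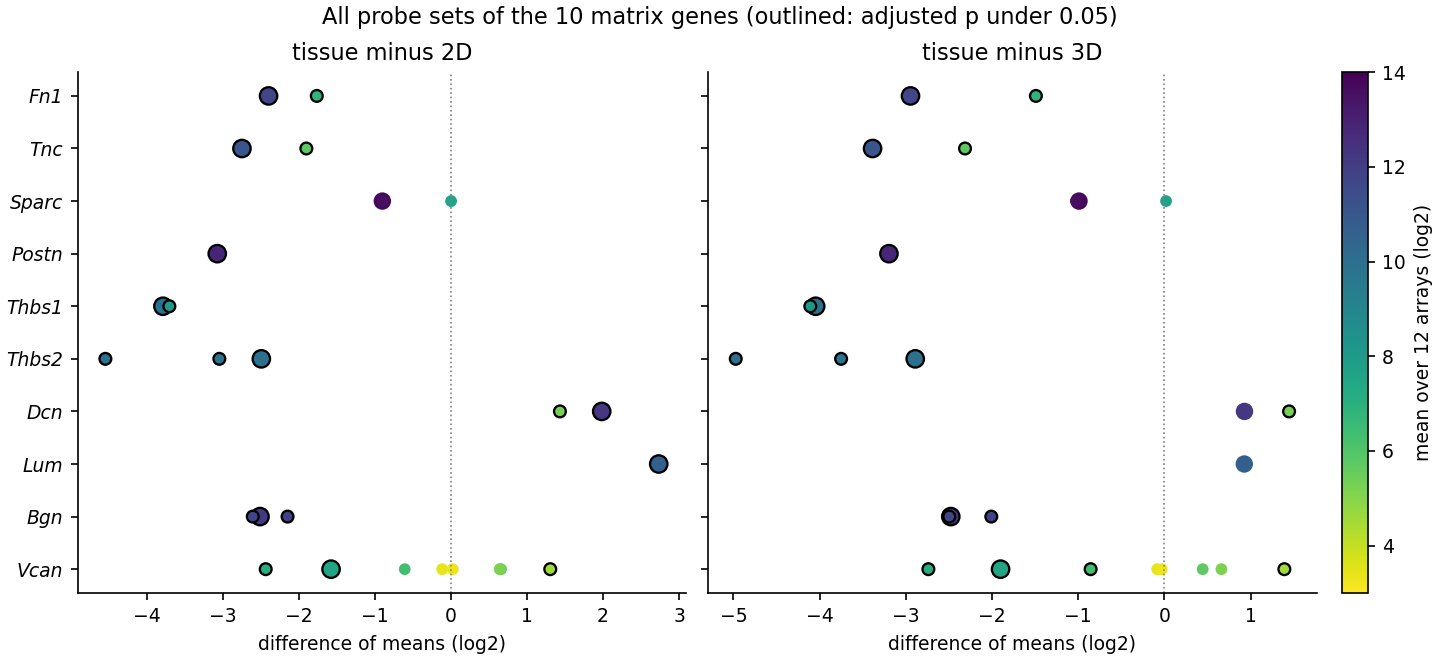
Differences of means (log2, x axis) of all 27 probe sets of the 10 genes (y axis), tissue minus 2D and tissue minus 3D; large points are the brightest probe set of a gene, colour is the mean over 12 arrays, and an outline marks an adjusted p under 0.05. The probe sets of Thbs1, Thbs2, Bgn, Fn1 and Tnc lie on the same side of 0, and those of Vcan lie on both sides.

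Within the tissue group, 8 of the 10 genes had both replicates 2 and 3 below replicates 1 and 4, and the 2 that did not were Thbs2 and Vcan. The share of all genes with this order was not computed, so that count has no background. The marker sums of 6 of 9 cell types had the same order, those of fibroblasts, glia, sympathetic neurons, neurons in general, macrophages and endothelium, so the order was also seen outside the fibroblast markers. The spread of values on these arrays followed it as well, with upper quartiles of 8.13 and 7.91 on tissue replicates 2 and 3 against 8.41 to 8.59 on the others. Without tissue replicates 2 and 3 together, 7 genes were called against 2D (2 higher and 5 lower, Fn1 and Vcan being lost with adjusted p = 0.0754 and 0.100) and 9 against 3D (2 higher and 7 lower). All genes called in these fits were 10.1% higher and 12.3% lower against 2D, and 22.7% higher and 24.6% lower against 3D. With tissue replicate 1 alone, where the culture group alone supplies the spread, 6 were called against 2D (2 higher and 4 lower, beside 1.86% and 3.03% of all genes) and 9 against 3D (1 higher and 8 lower, beside 18.1% and 22% of all genes). The sum of 8 dividing cell markers also moved with culture, from 4761 to 7474 over the cultures to 349.2 to 544.5 in tissue, and all 8 were called lower in tissue in both comparisons. The fibroblast markers themselves did not move in one direction. Dpt, the gene of dermatopontin, which binds decorin, was higher in tissue by 3.78 against 2D (adjusted p = 6.35e-05) and by 3.34 against 3D (5.05e-05), and Pdgfrb, a growth factor receptor, was lower (-2.12 and -1.84). Endothelial markers were called higher in tissue for 6 of 9 in both comparisons. The part of these cell types in the values of the matrix genes was not tested.

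The rest of the matrix machinery was read from 7 lists of related genes. Of their 94 measured genes, 0 were called between 3D and 2D with limma, where 0.0165% of all genes were called. At an unadjusted p below 0.05, 10 were higher and 10 lower, and the share of all genes at that level was not computed. In tissue the counts of each list stand beside 9.87% of all genes higher and 14.3% lower against 2D, and 15.5% higher and 20.1% lower against 3D. Of 10 other small leucine-rich proteoglycans, tissue had 2 called higher than in 2D and 3 called higher than in 3D, with 0 lower in either (0 and 1 at an unadjusted p below 0.05). Ecm2 was higher by 3.29 (adjusted p = 3.41e-04) and 3.19 (1.37e-04), and Epyc, epiphycan, by 2.18 (0.00635) and 1.60 (0.0151). Dcn, Lum, Kera and Epyc lie next to each other on chromosome 10. Kera (keratocan) was higher by 0.98 (0.0552) against 2D and 1.13 (0.0219) against 3D. The means of the 4 neighbours were all higher in tissue, though not all were called. Kera was dim in every group, with means of 4.06 in 2D, 3.91 in 3D and 5.04 in tissue. In the neighbouring group of Ecm2, Aspn, Omd and Ogn on chromosome 13, Ecm2 alone was called. The median of the 10 was 0.95 and 0.79, on the other side of 0 from the median of the matrix genes.

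Of 18 other matricellular genes, 5 were called higher and 3 lower against 2D, and 7 higher and 3 lower against 3D. The lower ones were Ccn1, Ccn2 and Ccn4, of the CCN family. The family did not move as a whole. Ccn3 was higher in tissue, by 1.255 against 2D (adjusted p = 0.0695) and by 2.00 against 3D (6.03e-04). Ccn5 was called in neither comparison (-0.29 and 0.215). Ccn2, connective tissue growth factor, fell by 5.11 against 2D (adjusted p = 1.79e-05) and by 4.42 against 3D (1.76e-06), and Ccn1 differed by -3.55 (6.35e-05) and -3.00 (9.21e-06). The 5 higher ones against 2D, named after their values were seen, were Thbs4, Smoc2, Tnxb, Spock3 and Comp. Thbs4 and Comp belong to the thrombospondin family and Tnxb to the tenascins. They stood higher in tissue than in 2D by 2.64, 0.90 and 1.76 (adjusted p = 0.0120, 0.0155 and 0.0119), opposite to Thbs1, Thbs2 and Tnc. Their listed relatives Thbs3, Tnr and Tnn were not called against 2D (0.43, 0.595 and 0.1425). Comp was dim, with means of 5.35 in 2D and 6.25 in tissue. Skeletal muscle markers were raised on tissue replicates 2 to 4, and their part in these values was not tested. Against 3D, Comp, Tnxb and Tnr were called higher and Thbs4 was not (1.32, adjusted p = 0.0988).

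Among 11 genes of hyalectans, link proteins and hyaluronan synthesis, 3 were higher and 3 lower against 2D, and 4 higher and 3 lower against 3D. Has2, the main hyaluronan synthase of many fibroblasts, differed by -2.87 (adjusted p = 0.00106) and -2.93 (8.72e-05), and Tnfaip6, which modifies hyaluronan, fell by 1.63 (0.00691) against 2D. Bcan, brevican, was higher by 1.33 against 3D (5.87e-04). Of 8 proteases that cut versican or trim procollagens, 4 were lower and 1 higher against 2D, and 5 lower and 2 higher against 3D. Adamts1 differed by -3.44 (1.18e-04) and -4.21 (1.15e-05), and Adamts4 differed by -3.84 (4.25e-04) and -4.0 (2.99e-05). Vcan at its brightest probe set, Has2 and both of these proteases were lower in tissue than in either culture, but neither list moved as a whole. Has3, Hapln1 and Adamts15 were called higher in tissue in both comparisons. Has3, a dim hyaluronan synthase gene, differed by 0.71 (adjusted p = 0.0158) against 2D and 0.755 (0.0045) against 3D. Adamts15 differed by 1.41 (0.0041) and 1.28 (0.0019). For Hapln1, a link protein gene, the adjusted p was 0.0152 and 0.0174.

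Of 16 receptors, 0 were higher (4 before adjustment) and 5 lower against 2D, and 2 higher and 7 lower against 3D. Cd44, a hyaluronan receptor, differed by -3.82 (adjusted p = 2.40e-04) and -4.02 (5.85e-05), and Itga5, the alpha chain of the main fibronectin receptor, by -3.35 (0.00150) and -3.49 (1.90e-05). Of 16 fibulins and other elastic fibre genes, 4 were higher and 4 lower against 2D, and 3 higher and 5 lower against 3D. Eln, tropoelastin, was higher by 2.68 (2.41e-04) and 2.62 (5.73e-05), while Emilin1, an elastic fibre glycoprotein, fell by 2.76 against 2D (7.84e-04) and Ltbp2 fell by 3.63 against 3D (2.78e-05). Of 15 enzymes that build chondroitin and dermatan sulphate chains, 1 was higher in both comparisons, 2 were lower against 2D and 5 were lower against 3D. Against 2D these counts are near the shares of all genes and are no result about the enzymes. The same holds for the matricellular genes called lower in both comparisons, and for the elastic fibre genes and receptors called higher against 3D. Chst15 was higher by 0.95 (0.0120) and 1.80 (2.70e-04), and Chpf2 differed by -1.15 (0.00319) and -0.92 (0.00206). Counts in these lists moved with the setting. The 16 receptors had 1 to 8 called lower against 2D over the alternatives, and the 15 enzymes 0 to 6.

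**Figure D5:**
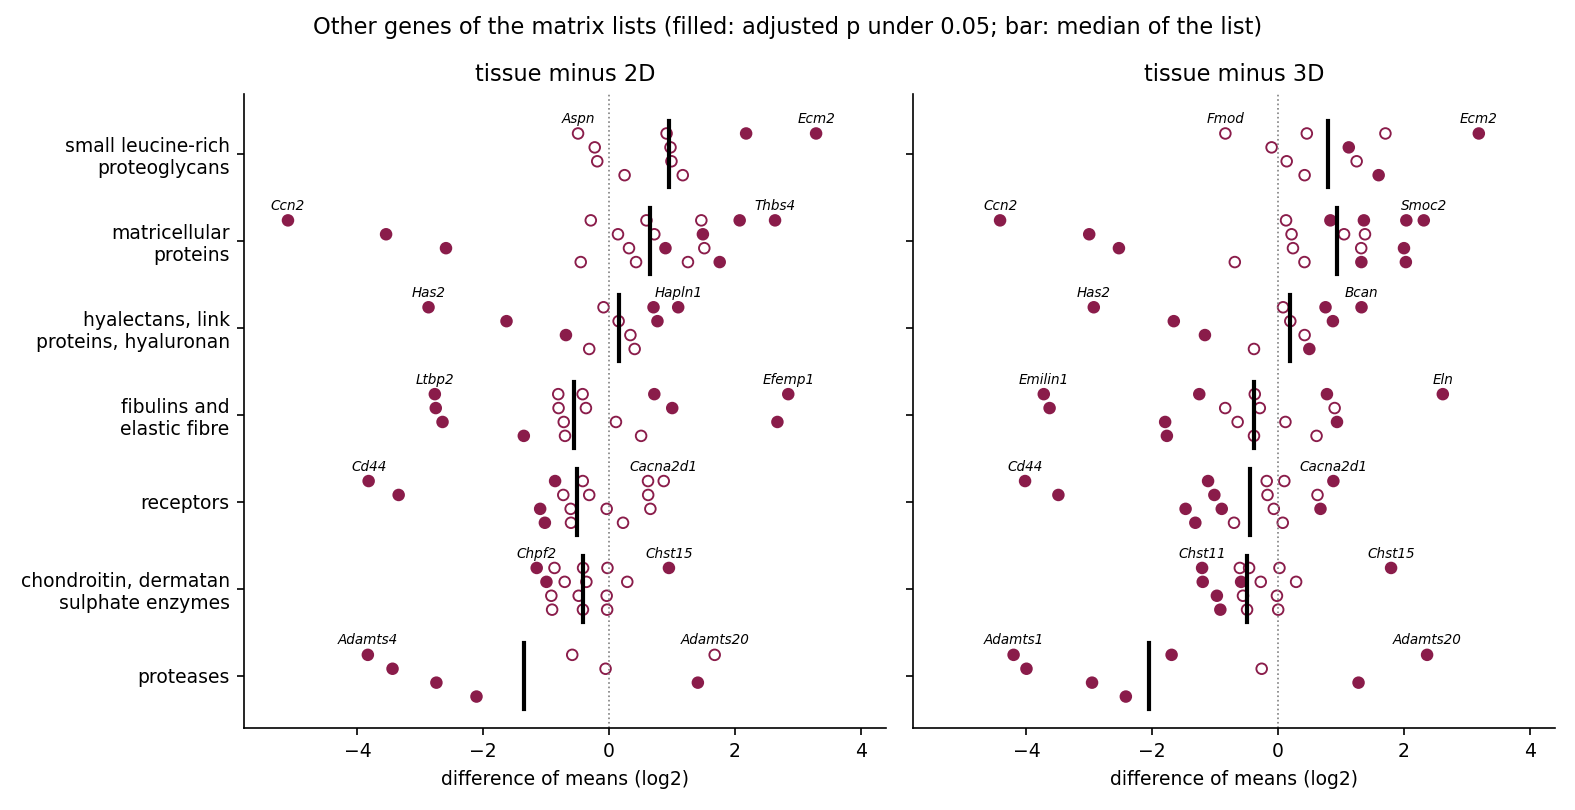
Differences of means (log2, x axis) of the genes in 7 lists of related genes (y axis), tissue minus 2D and tissue minus 3D; each point is a gene, filled where the adjusted p was under 0.05, the bar is the median of the list, and the lowest and highest gene of each list is named. Ccn2 is the lowest point in both panels, and other small leucine-rich proteoglycans have no filled point below 0.

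The genes whose pattern over the 12 arrays was nearest to each member were read by Pearson's r, given without a test because the 3 groups form clusters. Dcn and Lum had the same nearest pair, Steap4 (r of 0.975 with Dcn and 0.951 with Lum) and C1s1, a complement protease gene (0.940 and 0.974). The means of C1s1 were 6.62 in 2D, 8.09 in 3D and 8.93 in tissue, and those of Steap4 5.39, 6.89 and 8.41. The nearest to Postn were Rbm22 (0.998) and the collagen chain gene Col5a2 (0.997). Those to Thbs1 were Lox, the collagen cross-linking enzyme (0.985), and Rab13 (0.982), and those to Thbs2 Fosl2, an AP-1 subunit (0.994), and Ndc80 (0.994). The nearest to Vcan were Clec4d (0.979) and Emilin2 (0.956). For Fn1 they were Taf12 (0.992) and Gusb (0.991), for Tnc Oaf (0.996) and Sfswap (0.992), for Sparc Tug1 (0.998) and Drg1 (0.996), and for Bgn Slc25a32 (0.994) and Ipo9 (0.993). The 4 tissue arrays that stood apart are shared by all of these values.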

How the data were processed

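RNA of 2D cultures, 3D cultures and SCG tissue, 4 biological replicates each, was hybridised to 12 Affymetrix mouse genome arrays. The authors deposited log2 expression values that Affymetrix Expression Console had made with RMA, which adjusts background, quantile-normalizes the arrays and summarizes the probes of a set. No version of it is stated in the sources used here. Quantile normalization makes the arrays' distributions alike and hides a shift shared by most genes. Scanner files were not used here, so scan batches were not tested, and the number of arrays limits the precision.

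Control probe sets (64) were dropped. Of the other 45037, 34945 carry 1 gene symbol in the platform annotation, 932 carry several and 9160 are unnamed here. The probe set of highest mean over the 12 arrays stood for each of 18193 genes. Each comparison was a moderated linear fit of its 8 arrays (limma 3.58.1, with statmod 1.5.0 and R 4.3.3), and p-values were adjusted by the Benjamini-Hochberg method over all 45037 with a threshold of 0.05. Exact two-sided permutation tests used the 70 ways of dividing 8 arrays into 4 and 4 (smallest p 0.0286). The fit was tested on simulated data.

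The members and the lists (7 of related genes, 9 of markers; 169 of 178 genes had a named probe set) were chosen with earlier results of these data known, and so were the alternatives that leave out several arrays. The related genes named are, by rule, the 2 of smallest adjusted p in each list and comparison (shown in part), and the 2 genes nearest to each member by Pearson's r. Kera, Thbs4, Smoc2, Tnxb, Spock3, Comp, Ccn4, Aspn, Omd, Ogn, Col1a1, Col1a2 and Col3a1 were named besides, after their values were seen. So were Ccn3, Ccn5, Thbs3, Tnr, Tnn, Has3, Hapln1 and Adamts15. Other fits tried were all 12 arrays at once, weights for array quality, a robust prior with a mean trend, and a replicate block. Other inputs were the 26551 probe sets reaching 6 (log2) on 4 or more arrays, cyclic loess, and centring on probe sets with a mean of at least 6. Further alternatives were a minimum of 2-fold, the methods' t-test (unadjusted and adjusted), the mean of a gene's probe sets, its probe set of highest SD, and leaving out each array. No 2 arrays were identical.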

Additional observations from a re-analysis of the deposited data

Results flagged for a closer look

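In 3 of the 30 sets of 4 arrays formed by the 10 genes and 3 groups, 1 array lay far from the other 3, where chance flags about 1 in 20. Tnc stood at 11.8 on 3D replicate 1 against 12.57 to 12.65 on the other 3D arrays. Sparc stood at 13.8 on 2D replicate 3 against 14.14 to 14.15, and Thbs2 at 10.95 on 3D replicate 4 against 11.08 to 11.1. The first 2 are on the arrays that were lowest for most of the genes in their group: 3D replicate 1 for 7 of 10 and 2D replicate 3 for 8 of 10.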

How the results depend on the processing

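The 10 genes kept 0 calls between 3D and 2D under most alternatives. With array quality weights 1 was called (Lum, adjusted p = 0.0303), beside 1.08% of all genes higher and 0.638% lower. With the methods' t-test before adjustment 3 were called, beside 7.23% of all genes higher and 4.41% lower. Without 2D replicate 4 and 3D replicate 1 together, 3 were called. The first of these was the highest 2D array for 7 of the genes and the second the lowest 3D array for 7, so for those genes leaving them out raises 3D over 2D by construction, and in that fit 2.45% of all genes were called higher and 5.01% lower. Leaving out each array in turn gave counts from 0 to 0 for 3D minus 2D, 7 to 9 for tissue minus 2D and 7 to 8 for tissue minus 3D. Some differences between 3D and 2D, none of them called, changed sign. Over the fits that left out 1 array, Sparc ran from -8e-04 to 0.12, Thbs1 from -0.47 to 0.74, Vcan from -0.0475 to 0.74 and Bgn from -0.18 to 0.065, and Bgn was 0.13 without 2D replicate 4 and 3D replicate 1. Sparc, Thbs1 and Vcan changed sign only without 2D replicate 3, their lowest 2D array, and leaving it out lowers the difference by construction. Bgn changed sign without 2D replicate 4, its highest 2D array, or without 3D replicate 1, its lowest 3D array. Why these arrays stood apart was not tested. No gene changed sign in either tissue comparison. Over all alternatives, 15 values of single genes lost a call against 2D, all of Fn1, Vcan or Thbs1, and against 3D 15 gained one, all of Dcn, Lum or Sparc, and 1 (Vcan) lost it.

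With the replicate block the counts were 0, 9 and 7, as without it. The deviations of same-numbered arrays had correlations from -0.07 to 0.41. Replicates 1 and 3 each matched best with their own number in every pair of groups, and the other replicates did not. Whether arrays of the same number share animals or a preparation was not tested. The sources used here do not state a pairing, and the main fits had no replicate block. Centring moved the median of all genes in both tissue comparisons to 0.31 and the share higher among called genes to 61.6% (40.9% before) for 2D and to 60.6% (43.5% before) for 3D, with 52.3% in both under cyclic loess, while the 7 lower genes of the set stayed called under both scalings.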
